A study of Mus musculus with 16 samples.

Results

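Neuroendocrine carcinomas of TRAMP mice were compared with dorsal-lateral prostate (DLP) lobes of TRAMP mice, a strain whose prostate epithelium makes SV40 T antigen from a transgene under the probasin promoter. Members were chosen by the tissue and genotype labels: 6 carcinoma arrays and 6 TRAMP DLP arrays, together 12 of the 16 arrays of the series. The 6 neuroendocrine carcinomas (NECa) came from TRAMP mice, 3 treated with AGN, an extract of Angelica gigas Nakai root, and 3 with vehicle; their age was not in the sources used here. The 6 TRAMP DLP arrays were 1 each of AGN, D/DA (decursin and decursinol angelate, compounds of that root) and vehicle at 16 weeks and again at 28 weeks of age, so each combination of age and treatment is a single array. Wild-type (WT) reference levels came from 2 whole prostates of mice aged 24 to 28 weeks and from 1 DLP array each at 16 and 28 weeks. The strain field names TRAMP for the 2 whole prostates although their genotype field says wild type, and C57BL/6 for the 2 WT DLP arrays. All carcinoma and TRAMP DLP samples carry the transgene; no probe for T antigen was matched, and its level was not analysed here. D/DA was given to DLP mice alone, and age and any batch may differ between the tissues too, so these cannot be told apart from the tissue. Doses, and whether a DLP array held RNA of 1 mouse or of a pool, are not given in the sources used here.

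SV40 T antigen binds the retinoblastoma proteins and p53. Binding of the retinoblastoma proteins releases E2F transcription factors, which switch on genes of DNA replication. The glandular prostate is lined by luminal cells, which hold simple epithelial keratins and secrete large amounts of a few proteins under androgen control. Neuroendocrine carcinomas instead express transcription factors of neurons and endocrine cells, and the proteins of secretory granules and synapses.

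Values are normalized bead array intensities, in arbitrary units, with one probe taken for each of 16593 genes. Lowest intensities were 120 to 139 on NECa arrays and 114 to 122 on TRAMP DLP arrays, so a gene at about 150 was near the background and a fold change against it is compressed. A gene was called where limma gave an adjusted p under 0.05 over all probes and the groups differed at least 2-fold. The fold was required because the median gene was 0.11 higher in NECa on the log2 scale and an adjusted p under 0.05 alone called 78% of genes; changes are to be read against that median. The median intensity of an array was 155 to 166 in NECa and 151 to 156 in TRAMP DLP, against 164 and 165 in WT whole prostate and 157 and 159 in WT DLP, and the part of this shift in the calls was not tested beyond the scaling alternatives. On the rule with 2-fold, 906 genes were higher in NECa (5.46% of genes) and 1214 were lower (7.32%), together 12.8%. NECa arrays correlated with each other at r between 0.962 and 0.987 across probes and TRAMP DLP arrays at 0.983 to 0.996, against 0.807 to 0.863 between the tissues. Among the carcinomas, the first principal component set vehicle NECa 1 and AGN NECa 2 nearest to the glands, at 47.3 and 50.2 against 60.8 to 63.7 for the other 4. Leaving out both arrays changed the call of 0 of the 75 named genes, most of which were chosen for large differences on these same arrays. Marker counts did move: 0 macrophage markers were then higher instead of 2, and 1 basal epithelial marker instead of 0. Of the fibroblast markers, 2 were lower instead of 1. In whole tissue, a lower share of a cell type and less RNA per cell cannot be told apart.

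Several transcription factors of neuroendocrine cells were higher in the tissue labelled neuroendocrine. Insm1, a zinc finger factor that drives neuroendocrine differentiation, measured 3676, 4277 and 5607 at the lowest, median and highest of the 6 NECa arrays and 130, 140 and 144 in TRAMP DLP, against 143 and 130 in WT DLP and 153 and 138 in WT whole prostate. Every carcinoma lay far above every gland. The TRAMP DLP and WT DLP arrays overlapped (log2 difference 0.02 ± 0.13 SE, limma adjusted p = 0.953). The NECa to TRAMP DLP difference was 5.01 ± 0.10 on the log2 scale (limma adjusted p = 3.95e-15, n = 6 each). Prox1, a homeobox factor of neurons and endocrine cells, was at 987 to 1467 in NECa with a median of 1196, against 130 to 141 in TRAMP DLP. Myt1, a neural zinc finger factor, reached 638 to 2439 in NECa, against 137 to 150 in TRAMP DLP. Of 33 measured factors and RNA regulators of the neuroendocrine list, 7 rose, against 5.46% of all genes. They were these 3, the neuronal RNA-binding genes Elavl4 and Elavl3 (log2 differences 3.34 and 3.12), Nkx2-2 (1.83) and Hes6 (1.80). Isl1 and Mycl, 2 of the 33, fell, against 7.32% of all genes. Isl1, a LIM homeobox factor, overlapped between the tissues at 155, 189 and 1102 in NECa and 532, 697 and 754 in TRAMP DLP. Mycl, a MYC family member, was at 383 to 839 in NECa and 1139 to 2019 in TRAMP DLP, against 485 and 768 in WT DLP. The remaining 24 were not called, and 16 of the 33 stayed under 200 on all 16 arrays, Neurod1 and Mycn among them (log2 differences 0.13 each). The median difference of the list was 0.21, against 0.11 over all genes.

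Dense-core granule proteins and neurotransmitter enzymes followed. Chga, the granule protein chromogranin A, had 1150, 1365 and 1843 at the lowest, median and highest NECa array and 137, 140 and 146 in TRAMP DLP, against 142 and 140 in WT DLP. The carcinomas and glands did not overlap, and the log2 difference was 3.30 ± 0.10 (limma adjusted p = 1.52e-13, n = 6 each). Ddc, the decarboxylase that makes dopamine and serotonin, was at 4548 to 9074 in NECa, against 177 to 258 in TRAMP DLP, a log2 difference of 4.74 ± 0.15. Nnat, a small endoplasmic reticulum protein of neuroendocrine cells, was at 2583 to 3265 in 5 carcinomas and at 6456 in AGN NECa 1, against 137 to 146 in TRAMP DLP. Of the 27 measured genes of granules and hormone processing, 10 rose and 0 fell, against 5.46% and 7.32% of all genes, with a median of 0.31. Besides the 3 above, those that rose were Chgb, Scg3, Scg5, Resp18, Cadps, Qpct and Pcsk1n. Peptide hormone genes were not called: Cck, Gal, Sst and Nts had log2 differences of 0.26, 0.23, 0.12 and 0.12, and 10 of the 27 genes were under 200 on all arrays. In TRAMP DLP against WT DLP, 0 of the 27 were called, against 1.57% of all genes, so that the count is near that share.

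Genes of synaptic vesicle release and the neuronal cytoskeleton rose in 20 of 31, against 5.46% of all genes, with 0 lower and a median of 1.74. Syt11, a synaptotagmin, was at 7334, 9910 and 13649 in NECa and 588, 732 and 865 in TRAMP DLP, against 711 and 963 in WT DLP. Cplx1, which clamps vesicle fusion, was at 2285 to 5831 in NECa and 255 to 419 in TRAMP DLP. Syp, the vesicle protein synaptophysin, was at 1818 to 3136 in NECa and 181 to 243 in TRAMP DLP, against 247 and 287 in WT DLP and 501 and 475 in WT whole prostate. All 3 separated the tissues without overlap, with log2 differences of 3.76 ± 0.13, 3.50 ± 0.22 and 3.50 ± 0.13. The microtubule genes Stmn3, Tubb2b, Dcx and Map2 rose by 3.37, 2.70, 2.14 and 1.98 on the log2 scale. Tubb3, Snap25 and Nefl had differences of 0.08, 0.10 and 0.12, near the 0.11 of the median gene. Of the 31 genes, 6 were under 200 on all arrays. Map2 was the 1 gene of the list that was also higher in TRAMP DLP than in WT DLP, at 776 to 922 in TRAMP DLP against 420 and 400. Markers of peripheral nerve and Schwann cells were measured beside these genes: of 8, 0 were higher, against 5.46% of all genes, and Mal was lower. A probe of Pmp22 that was not the brightest gave 1.49 ± 0.16, and with the probe of largest variance 1 of the 8 was called higher; the list's mean log2 intensity was 8.14 to 8.36 in NECa and 8.20 to 8.34 in TRAMP DLP.

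Of the 12 genes with the largest measured increases, Insm1, Ddc and Nnat are in these lists and 9 are in none of the lists used here. Several were near the background in TRAMP DLP, so that these differences are compressed and their order is not settled. Mdk, the heparin-binding growth factor midkine, was at 6116, 10953 and 13984 in NECa and 196, 217 and 323 in TRAMP DLP, against 207 and 201 in WT DLP. Its log2 difference was 5.44 ± 0.18, and 3 of its 4 probes were called. Gprin1, a neurite outgrowth protein, was tightly grouped, at 3790 to 4079 in NECa and 143 to 152 in TRAMP DLP. The others were Tagln3, Ly6h, Bex2, Amer2, Pdxp, Rtn1 and Shd, with log2 differences of 3.78 (Shd) to 4.42 (Tagln3). Amer2 was called by 1 of its 2 probes.

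**Figure D1:**
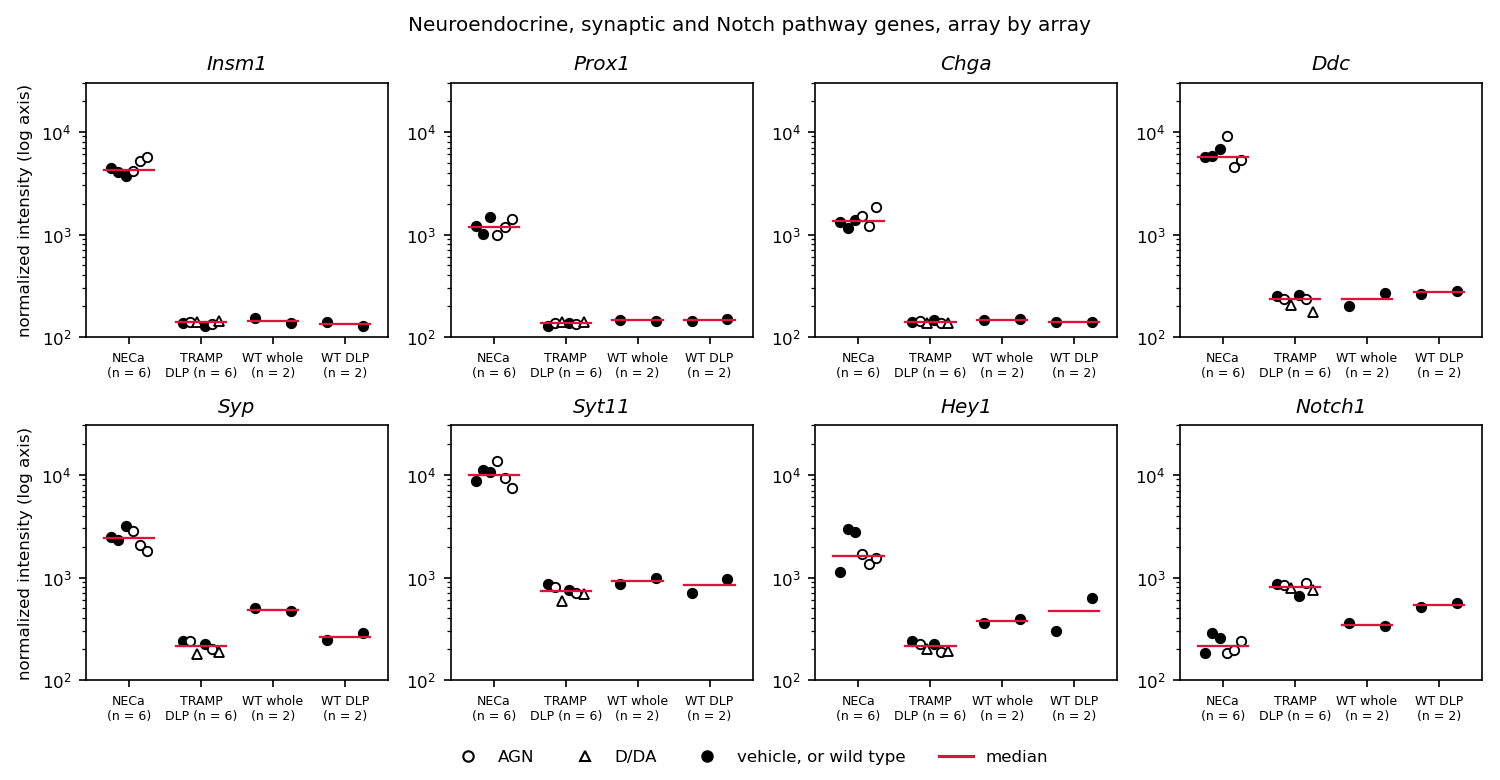
Normalized intensity (arbitrary units, log axis) of 8 genes on each of the 16 arrays, by tissue: NECa, TRAMP DLP, WT whole prostate and WT DLP. Each point is 1 array, open for AGN (circle) or D/DA (triangle) and filled for vehicle or wild type, and the line is the median. Insm1 lies between 3676 and 5607 in NECa and between 130 and 144 in TRAMP DLP, while Notch1 is the lower one in NECa.

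Of 24 Notch pathway genes, 4 were higher and 2 lower, against 5.46% and 7.32% of all genes. The lower count is near that share, and the list median was 0.16, against 0.11 over all genes. Hey1, a transcriptional repressor downstream of Notch, was at 1132, 1618 and 2943 in NECa and 190, 216 and 241 in TRAMP DLP, with 302 and 639 in WT DLP (log2 difference NECa to TRAMP DLP 3.07 ± 0.20). The receptor gene Notch1 was at 183 to 289 in NECa and 658 to 894 in TRAMP DLP, and Hes1, another repressor downstream of Notch, at 295 to 515 in NECa and 738 to 874 in TRAMP DLP. The differences of this pair were -1.85 ± 0.12 and -1.13 ± 0.12 with no overlap. Notch1 was at 516 and 566 in WT DLP and 362 and 336 in WT whole prostate. For Notch1, TRAMP DLP minus WT DLP was 0.56 ± 0.16 and NECa minus WT whole prostate -0.65 ± 0.16, both under 2-fold. Dtx1, Mfng and Nrarp, which modify Notch signalling, rose by 1.70, 1.29 and 1.24. The remaining 18 of 24 genes were not called, and 10 of them were under 200 on all arrays.

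Some cell cycle genes were already above WT in the TRAMP gland, some separated carcinoma from gland, and some, Birc5 and Kif22 among them, did both. The sequences below show the promoters of 2 replication genes and 2 mitosis genes from RefSeq (GRCm38.p6), each running from 250 bases before to 50 bases after the gene start, 5′ to 3′ on the gene's strand. Capitals mark matches, on either strand, to an E2F motif (TTTCGCGC or TTTGGCGC), a CCAAT box (CCAAT, or ATTGG on the other strand) or a cell cycle homology region, CHR (TTTGAA or TTCGAA). In Mcm5, chr8:75109259-75109558 on the plus strand, and Mcm6, chr1:128359656-128359955 on the minus strand, the E2F matches stand out, and some of them overlap. In Cdc20, chr4:118437294-118437593 on the minus strand, and Plk1, chr7:122159185-122159484 on the plus strand, there is a CHR match beside CCAAT boxes and no E2F match.
Mcm5: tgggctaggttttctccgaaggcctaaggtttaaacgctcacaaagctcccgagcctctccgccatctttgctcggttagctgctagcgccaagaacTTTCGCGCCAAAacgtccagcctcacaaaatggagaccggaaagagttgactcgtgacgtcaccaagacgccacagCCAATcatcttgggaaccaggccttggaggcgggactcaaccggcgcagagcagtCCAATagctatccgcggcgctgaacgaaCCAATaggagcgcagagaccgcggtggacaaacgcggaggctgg
Mcm6: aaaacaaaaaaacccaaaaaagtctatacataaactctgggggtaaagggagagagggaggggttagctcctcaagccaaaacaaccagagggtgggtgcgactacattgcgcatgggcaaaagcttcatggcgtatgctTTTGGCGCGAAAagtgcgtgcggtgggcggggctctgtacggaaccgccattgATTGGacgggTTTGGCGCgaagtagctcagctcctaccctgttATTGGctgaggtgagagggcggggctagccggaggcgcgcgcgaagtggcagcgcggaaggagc
Cdc20: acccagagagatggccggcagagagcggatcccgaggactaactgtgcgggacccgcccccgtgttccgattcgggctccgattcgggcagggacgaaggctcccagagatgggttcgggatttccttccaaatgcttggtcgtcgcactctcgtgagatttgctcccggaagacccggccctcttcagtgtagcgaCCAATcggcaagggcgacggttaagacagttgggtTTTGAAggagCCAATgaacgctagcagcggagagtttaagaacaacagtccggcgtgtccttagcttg
Plk1: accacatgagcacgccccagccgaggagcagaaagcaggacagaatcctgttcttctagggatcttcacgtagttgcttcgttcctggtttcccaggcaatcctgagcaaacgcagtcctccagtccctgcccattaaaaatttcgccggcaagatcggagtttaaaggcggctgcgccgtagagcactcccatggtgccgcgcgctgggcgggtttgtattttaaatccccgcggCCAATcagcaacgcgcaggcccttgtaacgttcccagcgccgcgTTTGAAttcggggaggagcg
An E2F match was found in 9 of the 28 replication genes with a promoter in the table (32.1%), in 1 of 31 mitosis genes (3.23%) and in 1 of 69 genes of the 3 neuroendocrine lists (1.45%), against 1.39% of 13336 array genes and 0.813% of all 32851 promoters. A CHR match was found in 5 of the 28 replication genes (17.9%), in 21 of the 31 mitosis genes (67.7%) and in 15 of the 69 neuroendocrine genes (21.7%), against 19.4% of array genes and 19.2% of all promoters. CCAAT was in 57.1%, 74.2% and 42% of these lists, against 42.5% of array genes and 37.4% of all promoters. A match is a run of letters in the window and not a shown binding site.

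The replication genes were largely shared by carcinoma and TRAMP gland. Mcm5, a subunit of the replicative helicase, was at 3882, 4455 and 5162 in NECa and 2019, 2267 and 2751 in TRAMP DLP, against 298 and 284 in WT DLP and 316 and 318 in WT whole prostate. All 12 arrays lay far above WT, and the 2 tissues did not overlap although their log2 difference of 0.97 ± 0.10 missed 2-fold. Mcm6, another helicase subunit, was at 1946 to 2923 in NECa and 1775 to 2253 in TRAMP DLP, with overlap, against 322 and 286 in WT DLP. Its NECa to TRAMP DLP difference was 0.24 ± 0.11 (limma adjusted p = 0.0506), and 1 of its other 3 probes was called lower at -1.14. Cdt1, which loads the helicase, was at 1788 to 2286 in NECa and 1199 to 1808 in TRAMP DLP, against 241 and 219 in WT DLP. Against WT, 18 of the 30 measured replication genes were called higher both in NECa (WT whole prostate) and in TRAMP DLP (WT DLP), in contrasts that share no array; over all genes 82 were, or 0.494%. Between NECa and TRAMP DLP, 10 of the 30 rose and 0 fell, against 5.46% and 7.32% of all genes, with a median of 0.76.

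A few replication genes behaved otherwise. Rrm2, the small subunit of ribonucleotide reductase, was at 1544, 2048 and 2321 in NECa and 217, 245 and 286 in TRAMP DLP, against 217 and 195 in WT DLP. TRAMP DLP thus lay next to WT DLP (log2 difference 0.27 ± 0.14, limma adjusted p = 0.297), and NECa was 3.00 ± 0.11 above TRAMP DLP. Cdc45 and Mcm10, which act at the start of replication, were 2.34 ± 0.09 and 1.87 ± 0.11 higher in NECa than in TRAMP DLP; TRAMP DLP was 0.82 ± 0.13 and 0.81 ± 0.14 above WT DLP, under 2-fold.

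Most mitosis genes were higher in carcinoma than in gland. Birc5, the survivin subunit of the chromosomal passenger complex, was at 3824, 4598 and 5025 in NECa and 504, 565 and 739 in TRAMP DLP, against 199 and 186 in WT DLP. Both steps were clear of overlap: NECa stood 2.94 ± 0.11 above TRAMP DLP on the log2 scale, and TRAMP DLP stood 1.61 ± 0.15 above WT DLP. Cdc20, which activates the anaphase-promoting complex, was at 3711 to 4630 in NECa and 857 to 1175 in TRAMP DLP, against 238 and 238 in WT DLP. Plk1, a mitotic kinase, was at 1878 to 2472 in NECa and 399 to 591 in TRAMP DLP, against 190 and 180 in WT DLP. Mybl2, a transcription factor of cycling cells, was at 1861 to 2419 in NECa and 196 to 254 in TRAMP DLP, against 156 and 166 in WT DLP. Of 35 measured mitosis genes, 21 rose between NECa and TRAMP DLP and 0 fell, against 5.46% and 7.32% of all genes, with a median of 1.64. The kinesin Kif22 (2.83 ± 0.12) and Top2a (2.54) were among those that rose. Against WT, 10 of the 35 were called higher in both tissues, as 0.494% of all genes were. The list medians against WT were 2.40 in NECa and 0.67 in TRAMP DLP, and for the replication list they were 2.45 and 1.16. The test of the difference between the 2 steps against WT called 21 of the 35 mitosis genes higher and 9 of the 30 replication genes, against 4.9% of all genes.

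E2F factors, cyclins and CDK inhibitors included genes on both sides. E2f1 was at 2116 to 2827 in NECa and 581 to 844 in TRAMP DLP, against 254 and 197 in WT DLP, and E2f2 at 1762 to 2924 in NECa and 265 to 311 in TRAMP DLP, against 201 and 239 in WT DLP. Ccnd1, the cyclin D1 gene that acts upstream of the retinoblastoma proteins, ran the opposite way at 287, 445 and 854 in NECa and 2034, 4395 and 6331 in TRAMP DLP, against 14391 and 8615 in WT DLP. The carcinomas were below every gland (log2 difference -3.14 ± 0.31, limma adjusted p = 2.22e-07), and the TRAMP DLP arrays were at 2034 to 3436 at 28 weeks and 5353 to 6331 at 16 weeks. The CDK inhibitor Cdkn1a, a p53 target, was at 903 to 2614 in NECa and 203 to 324 in TRAMP DLP, and Cdkn1c at 5294 to 6971 in NECa and 878 to 1172 in TRAMP DLP. Cdkn2a, which encodes the growth inhibitors INK4a and ARF, was at 747, 927 and 1159 in NECa and 377, 901 and 1439 in TRAMP DLP, against 147 and 135 in WT DLP. NECa and TRAMP DLP overlapped (log2 difference 0.30 ± 0.33, limma adjusted p = 0.403), but TRAMP DLP held 1365 to 1439 at 28 weeks and 377 to 437 at 16 weeks. Against the 16-week arrays alone NECa was higher by 1.18 ± 0.14 (limma adjusted p = 9.73e-06), and against the 28-week arrays alone it was lower, at -0.58 ± 0.14 (limma adjusted p = 0.00445). A second Cdkn2a probe gave 1.46 ± 0.27. In all, 10 of the 30 genes rose and 2 fell, Ccnd1 and E2f5, against 5.46% and 7.32% of all genes. The list median was 0.53.

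Of 18 genes of Polycomb and DNA methylation, 3 rose and 0 fell, against 5.46% and 7.32% of all genes. Ezh2, the methyltransferase of Polycomb repressive complex 2, was at 1503, 1847 and 2263 in NECa and 294, 351 and 432 in TRAMP DLP, against 209 and 182 in WT DLP. Its log2 difference was 2.39 ± 0.12 on the probe with the highest signal, and the other 2 of 3 probes were not called. Suz12, a subunit of the same complex, was at 3644 to 5001 in NECa and 1766 to 2294 in TRAMP DLP, while the subunit gene Eed had a difference of -0.86 and was not called. Uhrf1, which guides maintenance DNA methylation, was at 2934 to 3552 in NECa and 1220 to 1716 in TRAMP DLP, against 266 and 226 in WT DLP. The list median was 0.14.

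**Figure D2:**
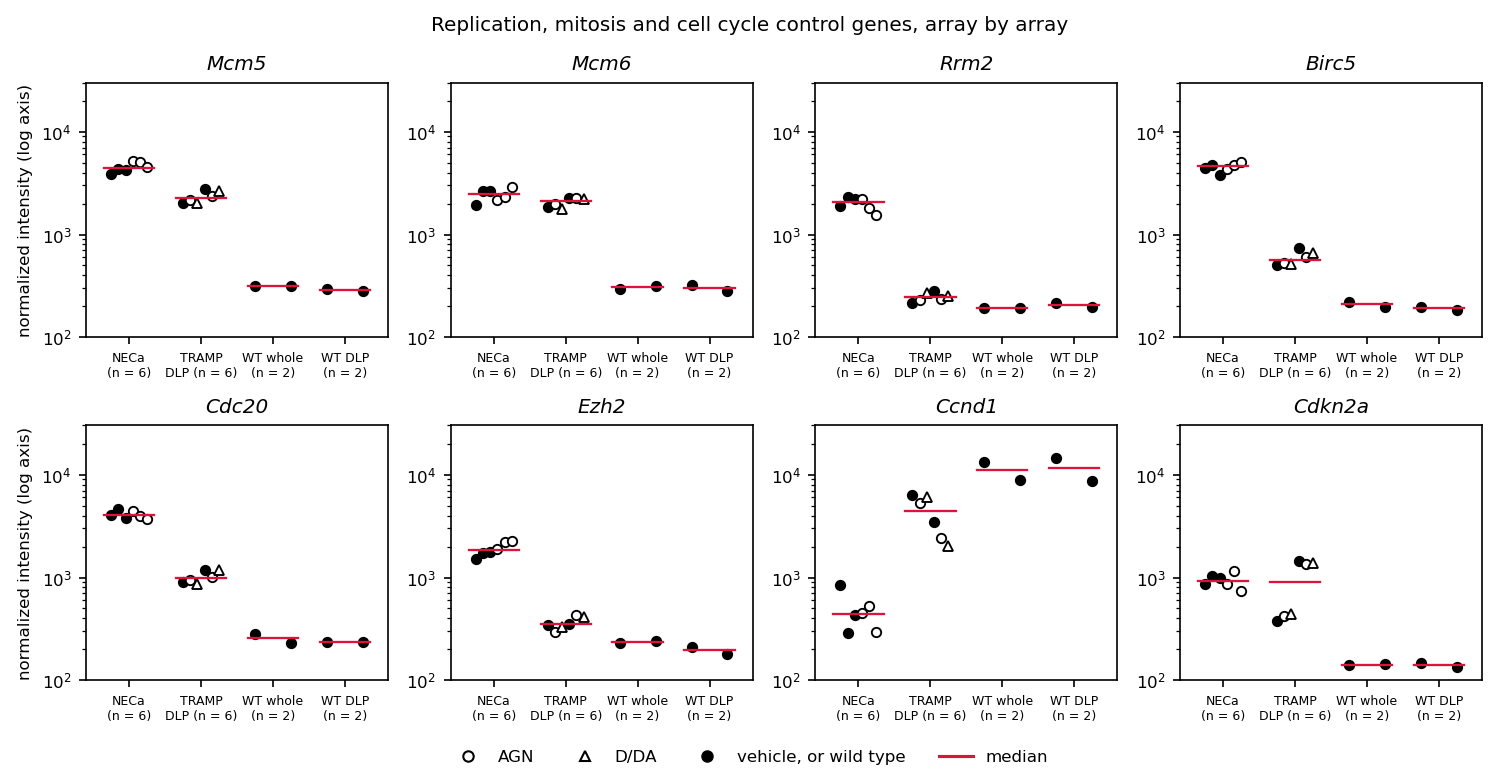
Normalized intensity (arbitrary units, log axis) of 8 cell cycle genes on each of the 16 arrays, by tissue, with points and median lines for NECa, TRAMP DLP, WT whole prostate and WT DLP (open circle AGN, triangle D/DA, filled vehicle or wild type). Mcm5 is high in both TRAMP tissues (2019 to 5162) against 284 to 318 in WT, Rrm2 is high in NECa, and Ccnd1 is lowest there.

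Genes higher against WT in both tissues numbered 82, and those lower in both 101 (0.494% and 0.609% of genes). The 82 were 55.8% of the 147 genes higher in TRAMP DLP (0.886% of genes) and 8.93% of the 918 higher in NECa (5.53%). The 101 were 88.6% of the 114 lower in TRAMP DLP (0.687%) and 6.78% of the 1490 lower in NECa (8.98%), and 14.5% of genes were called in either direction in NECa. Beside Mcm5, Mcm6, Cdt1 and Uhrf1, the strongest on the higher side were Nrm, which encodes an inner nuclear membrane protein, at 2878 to 4650 in NECa and 1829 to 2748 in TRAMP DLP against 290 and 321 in WT DLP, and 3 histone H2A genes. H2ac12, H2ac15 and H2ac7 read 14000 to 20528 in NECa and 1965 to 3918 in TRAMP DLP, but near-identical histone copies can share probe signal and these values are uncertain. The lower side was led by Wfdc3, Gsdma, Fgl1, Pbsn, Ms4a5, Atp12a, Serpina1f and Tgm4, most of them described below. Being shared against WT does not mean a like level in both tissues. Birc5 and Kif22 were higher in NECa than in TRAMP DLP as described above, while others ran the opposite way. Ttr, the thyroid hormone carrier transthyretin, was at 234, 651 and 2746 in NECa and 1759, 2547 and 3366 in TRAMP DLP, against 201 and 184 in WT DLP, and Chodl, a membrane lectin, had a log2 difference of -1.01 between NECa and TRAMP DLP. Satb1, a chromatin organiser, and Tmem97, the sigma-2 receptor, were lower than WT in both and 1.01 and 1.20 higher in NECa than in TRAMP DLP. Ttr, Chodl, Satb1 and Tmem97 were chosen after their values were seen.

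**Figure D3:**
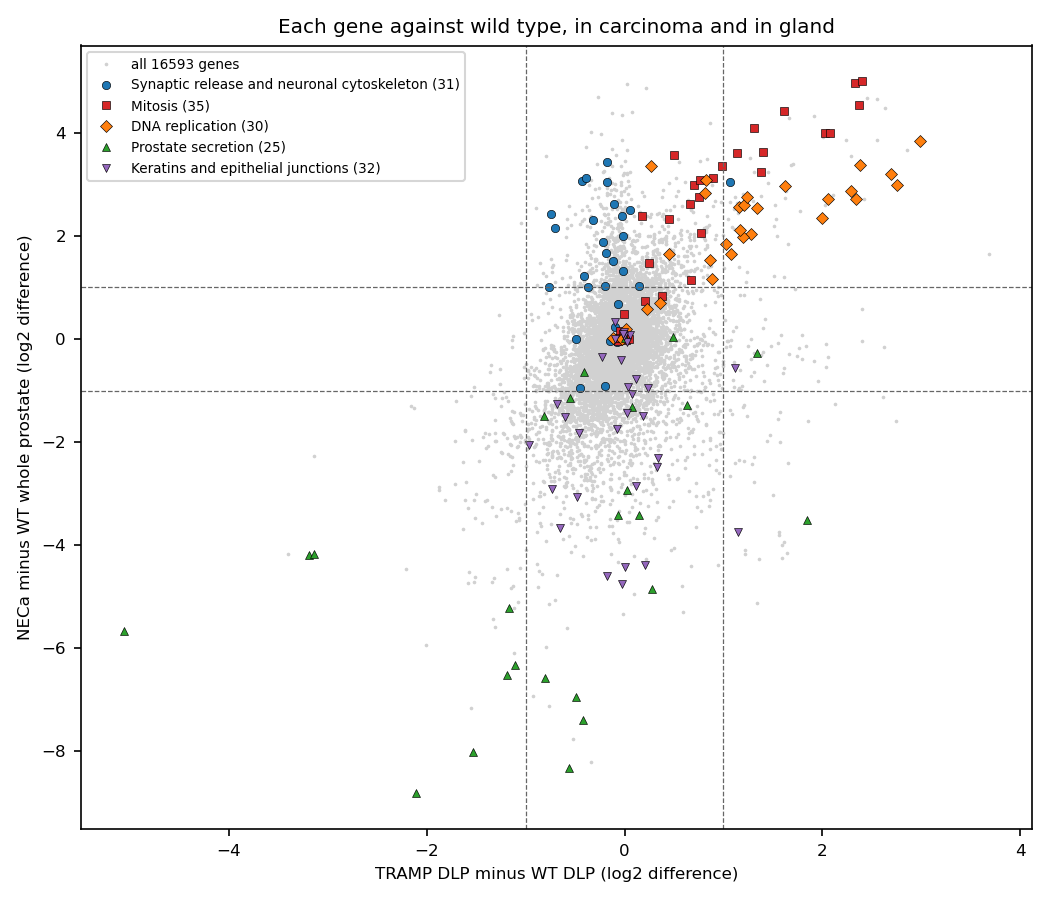
Log2 difference of each of 16593 genes between TRAMP DLP and WT DLP (x axis) and between NECa and WT whole prostate (y axis), contrasts that share no array; colours and symbols mark 5 gene lists, with the number of genes in brackets, and dashed lines mark 2-fold. Replication genes spread to the upper right, synaptic genes lie above the centre, and prostate secretion genes lie below it, a few of them far left.

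Many luminal transcription factors fell in carcinoma, and Foxa1 was not among them. Gata3, a luminal zinc finger factor, was at 152, 201 and 270 in NECa and 1647, 2009 and 2074 in TRAMP DLP, against 1758 and 2619 in WT DLP. Tbx3, a T-box repressor, was at 211 to 481 in NECa and 2474 to 3924 in TRAMP DLP, and Esrp1, which sets epithelial splicing, at 146 to 160 in NECa and 920 to 1364 in TRAMP DLP. In none of the 3 did carcinoma and gland overlap, and no difference of TRAMP DLP from WT DLP passed the test (limma adjusted p between 0.708 and 0.95). Foxa1, the pioneer factor of luminal cells, was at 2427, 2924 and 4138 in NECa and 2666, 3056 and 3544 in TRAMP DLP, against 1937 and 1994 in WT DLP. Its NECa to TRAMP DLP difference was -0.01 ± 0.11 (limma adjusted p = 0.946). Elf5, an ETS factor, already differed by -1.30 ± 0.34 between TRAMP DLP and WT DLP, and was at 133 to 165 in NECa, against 549 to 1738 in TRAMP DLP. Of 23 factors 10 fell and 0 rose, against 7.32% and 5.46% of all genes, with a median of -0.70. The others that fell were Grhl1, Grhl2, Elf3, Spdef, Gata2 and Klf5.

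Keratins and cell junction genes fell together. Krt18, a keratin of simple epithelium, was at 151, 210 and 382 in NECa and 4327, 5148 and 6142 in TRAMP DLP, against 5171 and 4947 in WT DLP. Its partner Krt8 was at 147 to 701 in NECa and 6277 to 7440 in TRAMP DLP. Krt19 was at 143 to 410 in NECa and 4875 to 6246 in TRAMP DLP, against 1750 and 3259 in WT DLP, so that here the TRAMP gland was above WT. The differences of the 3 were -4.44 ± 0.21, -4.35 ± 0.31 and -4.60 ± 0.21. Cdh1, the adhesion protein E-cadherin, was at 163 to 227 in NECa and 1671 to 2242 in TRAMP DLP, and the tight junction gene Cldn4 at 154 to 366 in NECa and 3269 to 4447 in TRAMP DLP. Of 32 genes, 19 fell and 0 rose, against 7.32% and 5.46% of all genes, with a median of -1.24. Vim, a filament protein of mesenchymal cells, had a difference of -0.03 ± 0.21 and overlapped. Among basal cell markers, 4 of 11 fell (Itgb4, Krt15, Krt14 and Trp63) and 0 rose, against the same shares of all genes. Krt5 had -0.22. Lgals7, a galectin, had 0.98, just under 2-fold, and 1 basal marker was called higher with quantile normalization, normexp or array weights, in vehicle arrays, against 28-week DLP, and without vehicle NECa 2, AGN NECa 2 or AGN NECa 3. The list's mean log2 intensity was 7.51 to 8.18 in NECa and 8.25 to 8.60 in TRAMP DLP, and its part in the keratin result was not tested.

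Prostate secretion divided into genes already low in the TRAMP gland and genes still high there. Pbsn, which encodes probasin and whose promoter drives the transgene, was at 142, 148 and 157 in NECa and 149, 187 and 355 in TRAMP DLP, against 1312 and 2557 in WT DLP and 2199 and 3310 in WT whole prostate. Wfdc3, a whey acidic protein domain gene, was at 145, 161 and 314 in NECa and 193, 261 and 417 in TRAMP DLP, against 15509 and 5279 in WT DLP. The tissues overlapped, far below WT: the TRAMP DLP minus WT DLP differences were -3.14 ± 0.28 (Pbsn) and -5.06 ± 0.40 (Wfdc3). Gsdma, Fgl1 and Ms4a5 had like differences of -3.40, -3.19 and -3.14. Fgl1, a fibrinogen-like secreted protein, was lower still in NECa, at -1.36 ± 0.23 against TRAMP DLP, and at -0.86 against the 28-week arrays alone, under 2-fold. In TRAMP DLP the 28-week arrays held less than the 16-week ones. Pbsn was at 149 to 166 at 28 weeks and 209 to 355 at 16 weeks, and Wfdc3 at 193 to 206 at 28 weeks and 317 to 417 at 16 weeks; at 16 weeks both genes were above every NECa array. The NECa minus TRAMP DLP differences of -0.48 (Pbsn) and -0.58 (Wfdc3) were under 2-fold, but Wfdc3 was called lower against the 16-week arrays alone (-1.03, limma adjusted p = 0.000908), and both were called lower after normexp background correction, at -1.04 (Pbsn) and -1.08 (Wfdc3).

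Tgm4, the transglutaminase of the copulatory plug, stood between these. It was at 142, 150 and 158 in NECa and 6511, 10341 and 21091 in TRAMP DLP, against 48954 and 46305 in WT DLP. NECa was at the background, with a log2 difference of -6.20 ± 0.23 from TRAMP DLP (limma adjusted p = 1.98e-12), and TRAMP DLP differed from WT DLP by -2.11 ± 0.31. Spink1, a trypsin inhibitor, and Atp12a, a proton pump subunit, showed the same pair of steps, with NECa minus TRAMP DLP differences of -5.93 and -2.40 and TRAMP DLP minus WT DLP differences of -1.54 and -2.20.

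Other secretory genes remained high in the TRAMP gland, though not all at the WT level. Msmb, which encodes the seminal protein beta-microseminoprotein, was at 138, 179 and 2777 in NECa and 23902, 30646 and 41467 in TRAMP DLP, against 46823 and 42115 in WT DLP. Every TRAMP DLP array lay below every WT DLP array, but the difference was not called (-0.49 ± 0.75, limma adjusted p = 0.774). That SE came from the fit of 16 arrays, which pools the spread of all tissues. It therefore takes in the carcinomas, where Msmb ran from 138 to 2777, and is not the spread of TRAMP DLP alone. The SEs against WT DLP given below for Azgp1 and Fxyd3 are pooled in the same way. The highest carcinoma value of Msmb was in AGN NECa 2. That array also held the highest NECa values of Defb50 (3233, against 132 to 435 in the other 5) and Spink1 (556). Azgp1, a secreted lipid-mobilising protein, was at 143 to 651 in NECa and 6400 to 9451 in TRAMP DLP. Its WT DLP values were higher, at 20395 and 17073 (TRAMP DLP minus WT DLP -1.19 ± 0.41, limma adjusted p = 0.087, not called). Unlike these, Fxyd3, which encodes a regulator of the sodium pump rather than a secretory product, lay above WT DLP in the TRAMP gland. It was at 144 to 990 in NECa and 15669 to 18278 in TRAMP DLP, against 6020 and 5120 in WT DLP. Its TRAMP DLP minus WT DLP difference was 1.59 ± 0.49 (limma adjusted p = 0.0543, not called). Of 25 secretion genes, 18 fell and 0 rose between NECa and TRAMP DLP, against 7.32% and 5.46% of all genes, with a median of -3.49. Against WT, 7 were called lower in both tissues, as 0.609% of all genes were. Psca, a surface antigen of prostate cells, had no call between TRAMP DLP and WT DLP (limma adjusted p = 0.118).

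Several of the largest decreases were in markers of neighbouring tissue. Svs4, Svs5, Svs2, Svs3b and Pate4, seminal vesicle or secretory gland products, had differences of -6.38 (Svs3b) to -7.29 (Svs4), and Pate14, of the Pate family, and Defb50, a beta-defensin, -5.93 and -6.59. Pate4 and Defb50 also count among the 18 secretion genes that fell. The mean log2 intensity of 9 seminal vesicle markers was 7.20 to 7.39 in NECa and 11.17 to 13.86 in TRAMP DLP, against 12.40 and 14.05 in WT DLP, and 9 of 9 fell. Svs3b read 560 in the 28-week AGN TRAMP DLP array and 12422 to 28764 in the other 5, and 2365 and 28385 in WT DLP. Myl1, a fast skeletal muscle light chain, was at 148 to 159 in NECa and 3717 to 15195 in TRAMP DLP, against 718 and 16420 in WT DLP, and 1 of its 2 probes was called; 12 of 17 skeletal muscle markers fell, at 7.40 to 7.60 in NECa and 9.21 to 10.68 in TRAMP DLP. Of 16 smooth muscle markers 11 fell, at 7.86 to 9.92 in NECa and 10.27 to 10.61 in TRAMP DLP, and of 16 adipocyte markers 7 fell, at 7.59 to 8.04 in NECa and 8.23 to 9.45 in TRAMP DLP. These counts stand against 7.32% of all genes lower. The part of these markers in the lower genes was not tested.

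Vessel and immune markers are read against the 5.46% of all genes that were higher. Of 14 endothelial markers 3 rose (Plvap 1.76, Ramp2 1.74, Egfl7 1.20), and 0 of 12 lymphocyte markers were called; of 15 macrophage markers the complement genes C1qb and C1qc rose. Macrophage markers averaged 8.29 to 8.61 on the log2 scale in 5 carcinomas and 9.44 in vehicle NECa 1, against 8.18 to 8.72 in TRAMP DLP, and without that array 1 of the 15 was called. Fibroblast markers ran from 7.90 to 9.37 in NECa, highest again in vehicle NECa 1, and from 8.37 to 8.73 in TRAMP DLP; of 18, Dcn, a matrix proteoglycan, fell, and 2 fell without that array. Of 6 red cell markers, Hba-a1 and Alas2 rose, both with overlap between the tissues. The count of 2 was not stable: 1 was called with each of quantile normalization, median centring, normexp and a filter on level, without the intensity trend, with treatment in the fit, in the vehicle or AGN arrays alone or together, against either age of DLP, and without vehicle NECa 1 or 3, AGN NECa 1 or any single TRAMP DLP array.

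**Figure D4:**
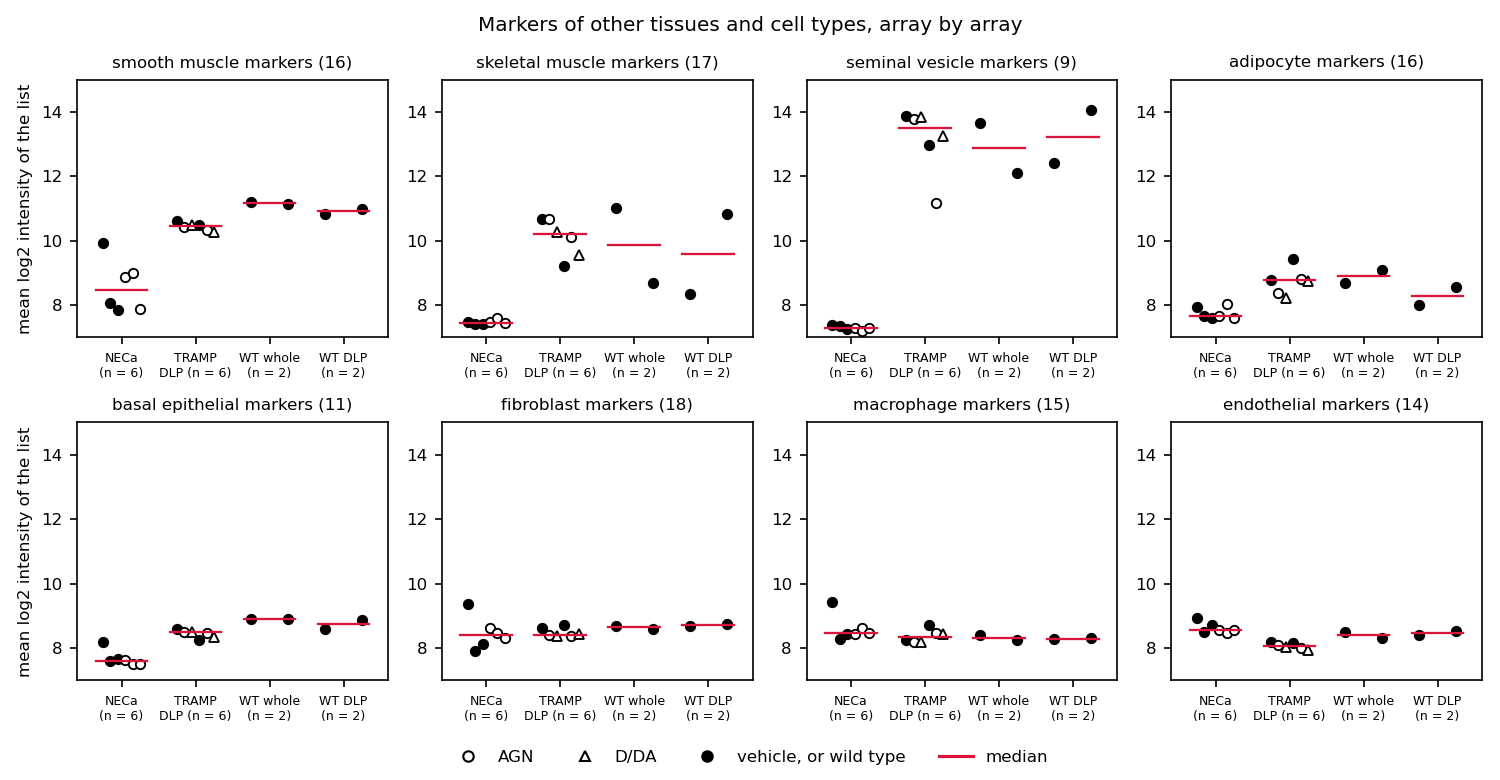
Mean log2 intensity of 8 marker lists on each array, by tissue (NECa, TRAMP DLP, WT whole prostate, WT DLP), with the number of genes in brackets; each point is 1 array (open circle AGN, triangle D/DA, filled vehicle or wild type) and the line is the median. Seminal vesicle and skeletal muscle markers lie at 7.20 to 7.60 in NECa and higher and scattered in the glands, while macrophage and fibroblast markers overlap, with vehicle NECa 1 highest.

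Among androgen response genes, 5 of 22 fell and 1 rose, against 7.32% and 5.46% of all genes. Azgp1, Slc45a3, Tmprss2, Sat1 and Fkbp5 fell, Cenpn rose by 1.88, and the other 16 were not called, with a median of 0.02. Slc45a3, a prostate sugar transporter, was at 162 to 306 in NECa and 1169 to 1783 in TRAMP DLP. Tmprss2, a serine protease, was at 152 to 565 in NECa and 1701 to 2216 in TRAMP DLP, against 3655 and 6476 in WT DLP, so that the TRAMP gland differed from WT DLP by -1.34 ± 0.35. Pmepa1, Ell2 and Steap4 had differences of 0.17, 0.05 and 0.07, and 8 of the 22 were under 200 on all arrays.

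Genes of protein folding in the endoplasmic reticulum were lower in carcinoma and in part already in the TRAMP gland. Selenos, which takes part in removal of misfolded proteins, was at 813, 1177 and 1602 in NECa and 4515, 4979 and 5764 in TRAMP DLP, against 7392 and 7959 in WT DLP. Dnajc3, a chaperone that inhibits the kinase PERK, was at 278 to 398 in NECa and 1175 to 1478 in TRAMP DLP, against 2963 and 3312 in WT DLP, 2 steps of similar direction (-1.92 ± 0.10 and -1.25 ± 0.14). Of 25 genes 10 fell and 1 rose, against 7.32% and 5.46% of all genes. Dnajb9, Pdia4, P4hb and Herpud1 were among those that fell, and Ddit3, the stress factor CHOP, rose by 1.18 ± 0.10. The chaperone Hspa5 had a difference of -0.05. Among 23 p53 targets, 4 were lower and 2 higher, against 7.32% and 5.46% of all genes, and the higher count is not far from its share. Ephx1, Fas, Ccng1 and Ddit4l had differences of -2.40, -2.15, -1.70 and -1.38, while Cdkn1a and Gadd45a rose by 2.74 and 1.25. The other 17 of 23 were not called, Mdm2 (0.10 ± 0.08) among them. Trp53 had no matching probe and was not analysed here.

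The reverse pattern, higher than WT in the TRAMP gland but lower than WT in carcinoma, was met by 14 genes. B4galnt2, a glycosyltransferase, was at 138, 154 and 288 in NECa and 2490, 3148 and 3586 in TRAMP DLP, against 393 and 547 in WT DLP and 547 and 476 in WT whole prostate. Fbp1, an enzyme of gluconeogenesis, was at 149 to 167 in NECa and 1666 to 2389 in TRAMP DLP, against 231 and 473 in WT DLP. Treh, which splits trehalose, was at 147 to 215 in NECa and 1299 to 2327 in TRAMP DLP, against 755 and 238 in WT DLP. The others were Anpep, Anxa13, Anxa3, Cyp2f2, H2-Q7, Hk2, Krt19, Parp14, Ppp1r1b, Scnn1a and Tmem54. In TRAMP DLP their means were 664 (Scnn1a) to 6050 (Cyp2f2), and in NECa 160 (Scnn1a) to 598 (Anxa3). These 14 were chosen after their values were seen, and the opposite pattern was found in 1 gene, Hey1.

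**Figure D5:**
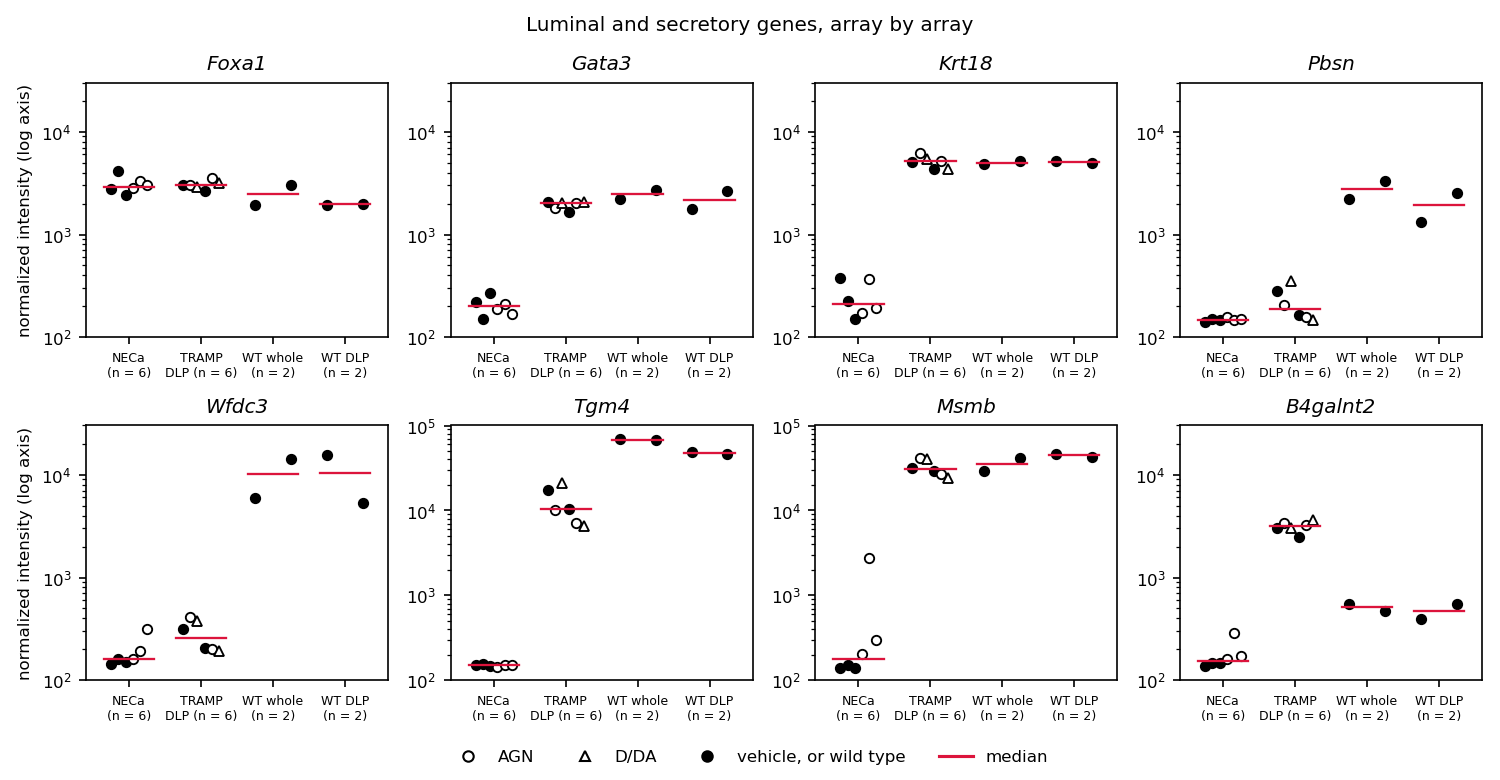
Normalized intensity (arbitrary units, log axis) of 8 luminal and secretory genes on each of the 16 arrays, by tissue (NECa, TRAMP DLP, WT whole prostate, WT DLP; open circle AGN, triangle D/DA, filled vehicle or wild type; line, median). Foxa1 stays level between NECa and TRAMP DLP, Pbsn and Wfdc3 are low in both, Msmb is low in NECa with 1 array at 2777, and B4galnt2 is high in TRAMP DLP.

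Calls and separation of the groups were taken from the same 12 arrays, so agreement between them is no separate evidence. Of the 906 genes higher in NECa, 887 had every NECa array above every TRAMP DLP array, as 23.1% of all genes did, and 825 were above all 10 gland arrays, as 13% of all genes were. Of the 1214 lower genes, 1168 were below every TRAMP DLP array (16.7% of all genes) and 1058 below all 10 gland arrays (12.9%). A test of whether the NECa to TRAMP DLP difference differed between AGN and vehicle called 5 of 25697 probes (0.0195%). An unadjusted limma p under 0.05 was found for 1187 of the 25697, a share that is itself under 0.05. Dbx1, a homeobox factor of neural progenitors, was at 1940, 3011 and 4395 in AGN NECa, against 352, 170 and 185 in vehicle NECa, and at 132 to 141 in all TRAMP DLP arrays. Fam171b, a membrane protein gene, was at 231, 163 and 160 in AGN NECa, against 706, 680 and 630 in vehicle NECa. The count of called probes depended on single arrays: it was 0 without AGN NECa 2, 1 without AGN NECa 3 or the 28-week vehicle DLP array, 2 without vehicle NECa 2 or the 28-week AGN DLP array, 11 without AGN NECa 1, 13 without vehicle NECa 3, and 88 without the 16-week vehicle DLP array.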

How the data were processed

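RNA was measured on 16 mouse bead arrays with biotinylated cRNA, per the labels' protocols. The deposited table held linear normalized intensity values for 25697 probes; lumi (no version) was the tool in the submitters' processing notes, and the normalization method and background treatment are not given in the sources used here. Another deposited table, of values not yet normalized, was left out, since the names of its 32 per-sample columns (16 signals) matched no sample label. The labels do not say that replicates came from separate animals, so the p-values reflect only the spread among these samples, which may be technical. The number of arrays limits the precision. Slide and scan of each array were not in the sources used here, so batch was not tested.

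The platform annotation named the probes, and 1719 probes had no name. Entrez identifiers tied 23962 probes to the RefSeq genes of GRCm38.p6, used for names and chromosomes; promoters came from RefSeq of the same assembly. A gene took its probe with the highest mean over the 12 arrays. List genes without a matching probe were not analysed here.

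Intensities were fitted on the log2 scale with limma 3.58.1 in R 4.3.3 (lmFit, eBayes with an intensity trend, two-sided, Benjamini-Hochberg over 25697 probes). The comparison of NECa with TRAMP DLP used 12 arrays, leaving 10 residual degrees of freedom. A fit of 16 arrays with 4 tissue means gave NECa minus WT whole prostate, TRAMP DLP minus WT DLP, and the difference of these differences. The treatment by tissue interaction used 10 arrays. The 12-array fit was tested on simulated data.

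The members and the 14 pathway and 11 marker lists were chosen with earlier results of these data known. Genes named were the 12 highest and 12 lowest differences among called genes whose groups did not overlap, the 3 largest of each pathway list, the 8 strongest shared genes in each direction, and a few fixed genes such as Insm1, Ezh2, Mcm5, Pbsn and Foxa1; other list members are named as examples of their list. Alternatives covered scaling, background correction, filters, treatment, age, choice of probe and each array left out.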

Additional observations from a re-analysis of the deposited data

Results flagged for a closer look

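Values were tested for a single array far from the other 5 of its tissue, by the gap to the nearest value over the whole range; 19 of 200 values passed, and chance flags about 1 in 20 groups. All are log2 intensities. AGN NECa 2 stood above the other carcinomas in the mean of the prostate secretion list (8.18), in Msmb (11.44), Defb50 (11.66), Spink1 (9.12) and Serpina1f (8.22). Vehicle NECa 1 stood above them in macrophage markers (9.44), basal epithelial markers (8.18) and Svs5 (7.91), and below them in the Polycomb and DNA methylation list (8.67) and Svs2 (7.05). AGN NECa 3 stood above in endoplasmic reticulum folding genes (9.41) and Wfdc3 (8.29), vehicle NECa 2 in neuroendocrine transcription factors (8.34), and AGN NECa 1 in Nnat (12.66). In TRAMP DLP, the 28-week vehicle array stood above the others in p53 targets (8.56) and below them in Esrp1 (9.85) and Slc45a3 (10.19), and the 28-week AGN array stood below in seminal vesicle markers (11.17) and Svs3b (9.13).

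The NECa to TRAMP DLP difference differed between AGN and vehicle arrays for 5 probes in limma's interaction test, each at an adjusted p of 0.0411. The AGN minus vehicle differences of the log2 difference were 3.65 for Dbx1, 1.05 for an unnamed probe, -1.67 for Fam171b, -2.96 for the clone 6330403K07Rik and -1.48 for Wfdc12. The clone 6330403K07Rik read 339, 174 and 170 in AGN NECa, against 1598, 2348 and 1770 in vehicle NECa. Wfdc12, a whey acidic protein domain gene, read 169, 202 and 160 in AGN NECa, against 389, 405 and 356 in vehicle NECa, and 754 and 924 in AGN TRAMP DLP, against 618 and 681 in vehicle TRAMP DLP. The clone and Wfdc12 were named after their values were seen, because the count was 5.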

How the results depend on the processing

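Of 75 named genes, most of them chosen for large differences in these data, 66 kept direction and call in the 27 alternatives tried. Of the other 9, Mcm5 passed 2-fold in some settings and Fgl1 missed it against 28-week DLP. Called lower, unlike in the 12 arrays, were Wfdc3 (-1.08), Pbsn (-1.04), Ms4a5 (-1.13) and Gsdma (-1.65) with normexp, Wfdc3 (-1.03) and Gsdma (-1.26) against 16-week DLP, and Gsdma (-1.01) in vehicle arrays. Mcm6 turned to -1.14 with the largest-variance probe, Cdkn2a to -0.58 against 28-week DLP, and Foxa1 to 0.129 (quantile), 0.0819 (vehicle arrays), 0.0159 (16-week DLP), and to between -0.0987 and 0.0553 with single arrays left out. The adjusted p alone, called first on 15017 probes higher and 5013 lower, was unstable: quantile normalization gave 6310 higher and 5512 lower, centring on the median 7415 and 5927, normexp background correction 4972 and 6823, 5100 higher among probes above the median level, 4264 in vehicle arrays, and 13461 to 16541 with single arrays left out. With 2-fold, 1206 were higher and 1555 lower, against 1311 and 1439 (quantile), 1078 and 1699 (centring) and 1575 and 2344 (normexp); normexp also gave 11 neuroendocrine factors higher, 5 Polycomb genes higher and 2 lower, 281 probes higher in TRAMP DLP than WT DLP, and 131 genes higher in both tissues. A single neuroendocrine factor was lower in vehicle arrays and against 16-week DLP, 1 Notch gene in vehicle arrays, and 1 replication gene with the largest-variance probe. Without the 2-fold rule, an alternative chosen after seeing the data, 9313 genes were higher and 3624 lower: higher in 29 neuroendocrine factors, 20 granule, 18 Notch, 27 replication, 34 mitosis, 20 cyclin and CDK inhibitor, 11 Polycomb, 5 luminal factor, 1 secretion, 6 androgen, 4 keratin and junction, 5 folding and 10 p53 genes, and lower in 2 granule, 5 cyclin and CDK inhibitor, 2 Polycomb, 16 luminal factor, 16 folding and 7 p53 genes. Probes called for treatment by tissue ran from 0 to 88 with single arrays left out, named in the report. The cause of these shifts was not tested. No paired analysis was possible because the DLP arrays carry no replicate numbers. Signal near the background limits weakly expressed genes.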
